A study of Drosophila melanogaster with 15 samples.

Results

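DAT mutant flies (dDATfmn) were compared with WT flies (isogenic w1118) on vehicle food, that is, without amphetamine (AMPH), to describe how the transcriptomes of the strains differ before any drug is given. The comparison was defined by strain and food as the sample labels give them, and its libraries are 8 of the 15 in the series, 4 for each strain. The fit used 6 of them (WT vehicle replicates 2, 3 and 4, and DAT mutant vehicle replicates 1, 3 and 4). DAT mutant vehicle replicate 2 and WT vehicle replicate 1 were kept out of it and used as check libraries. Males were 7 days old at the start of an exposure of 48 h to food with 0 mM AMPH, the vehicle, or with 10 mM AMPH in the other groups. The dDATfmn allele carries foreign sequence from a mobile element (roo) within DAT, which ends the reading frame early, and had been crossed back into the w1118 background, so that both strains carry w1118 and lack the eye pigment transporter encoded by white. Each library came from a single fly. The labels and methods name both heads and brains, and the defining markers of neurons, glia and the retina were all above 0 in every vehicle group (the rhodopsin gene ninaE was the most abundant of them). Effects of the lost transporter and of other sequence differences between these strains cannot be told apart with 1 mutant line.

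DAT, the dopamine transporter, takes released dopamine back into the neuron and so ends its signal. Flies with the fmn (fumin) allele are known for high locomotor activity and short sleep. The genes described below belong to groups with separate jobs: enzymes and receptors of dopamine, peptides secreted into the hemolymph in immune and stress responses, relatives of takeout, which resemble carriers of juvenile hormone, clock genes, enzymes that modify foreign compounds, and proteins of sensory organs, cuticle, muscle and eye.

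Expression is given as RPKM (reads scaled to transcript length and to library size), with 1 transcript per gene, the one of highest mean. Differences are DAT mutant minus WT on the log2(RPKM + 1) scale, with the standard error of the limma fit, and understate the change of genes with low values. A gene was called at an adjusted p under 0.1 (Benjamini-Hochberg over all genes tested). Library values stand in the order WT vehicle replicates 2, 3 and 4, then DAT mutant vehicle replicates 1, 3 and 4. The p-values measure the spread between these libraries of single flies, which were kept singly. Whether a lower level reflects fewer cells of a type or less RNA per cell cannot be told apart in RNA of a whole head or brain.

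On vehicle, 355 genes were upregulated and 381 downregulated in the DAT mutant among 9944 genes tested, which is 7.4% called (3.57% higher and 3.83% lower). At an unadjusted p under 0.05, 1842 genes passed. All 736 called genes had groups of 3 that did not overlap, as did 24.4% of all genes tested. Most differences were modest, with a median of 0.74 on the log2 scale in absolute size, and 229 genes (121 higher and 108 lower) differed by at least 1. The extremes were TotC, which was higher by 6.92, and Srg3, which fell by 4.89. The share called stayed between 6.66% and 9.01% in all 7 classes of mean level, from under 2 RPKM to above 100 RPKM. The median difference over all genes tested was -0.009.

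The check libraries were read against these calls without entering the fit. WT vehicle replicate 1 lay beyond every DAT mutant library of the fit, on the WT side, in 680 of the 736 called genes (92.4%), against 81.8% of the 1694 genes that were not called although their groups did not overlap. DAT mutant vehicle replicate 2 lay beyond every WT library of the fit, on the mutant side, in 531 (72.1%), against 61.9%. For this library the share was 85.3% of the genes called lower and 58% of those called higher. It stood apart from all other vehicle libraries: its best Spearman correlation with a library of its own group was 0.841 over 10394 genes (at least 0.961 for each of the others), its median level was 9.44 RPKM against 14.1 to 15.1, and the summed level of 12 neuron markers was 495 RPKM against 1145 to 1318. With all 8 libraries fitted, 209 of 10084 genes (2.07%) were called, 93 higher and 116 lower, 203 of them among the 736, and with WT vehicle replicate 1 alone added the count was 966. Leaving out 1 of the 6 libraries gave between 310 and 601 calls, and those that moved the count most were WT vehicle replicates 2 (406 without it) and 3 (364) and DAT mutant vehicle replicates 1 (475) and 4 (310). Depth, read from the steps between low values, was 70.9, 20.7 and 36.9 megareads in the WT libraries and 46.9, 11.2 and 11.1 megareads in the DAT mutant libraries. The part of this difference in depth in the calls was not tested.

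**Figure D1:**
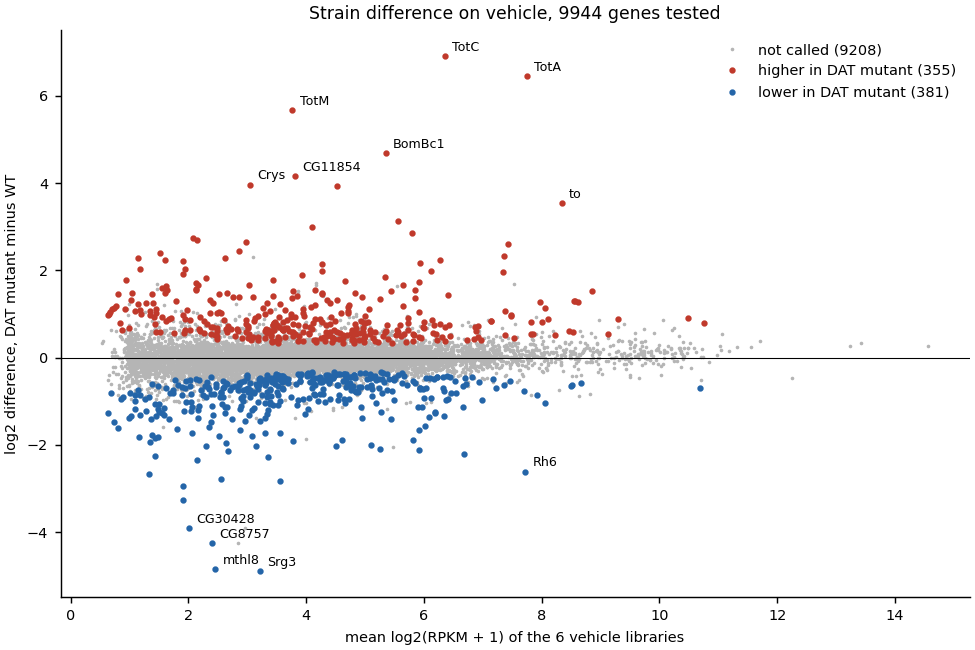
Strain difference on vehicle (DAT mutant minus WT, log2 scale) against the mean log2(RPKM + 1) of the 6 vehicle libraries, 1 point for each of the 9944 genes tested. The 355 genes called higher (red) and 381 called lower (blue) are spread over the whole range of levels, and the Turandot genes TotC, TotA and TotM stand highest.

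Genes of dopamine synthesis, packaging and reuptake differed little. DAT was at 3.02, 2.18 and 2.99 RPKM in WT and 2.15, 2.29 and 2.37 in the mutant (chr2R:12446062-12452763 of dm3, minus strand), a difference of -0.18 ± 0.15 (adjusted p = 0.574). Reads upstream and downstream of the insertion enter this value together. Of the 7 genes of dopamine synthesis, packaging and reuptake, 1 was called (14.3%, against 7.4% of all genes). It was ple (pale), which encodes tyrosine hydroxylase, the rate-limiting enzyme of dopamine synthesis. It was at 11.7, 11.4 and 15.4 RPKM in WT and 17.9, 17.5 and 21.6 in the mutant, with every mutant library above every WT library (0.53 ± 0.14, adjusted p = 0.0855). The call on ple was lost without WT vehicle replicate 2 or 3 or without DAT mutant vehicle replicate 1, 3 or 4 (adjusted p up to 0.255) and over all 8 libraries (adjusted p = 0.731). The decarboxylase gene Ddc differed by -0.18 ± 0.10, the cofactor enzyme gene Pu by -0.11 ± 0.11, the vesicular transporter gene Vmat by 0.36 ± 0.12, Catsup by -0.08 ± 0.10 and the phenylalanine hydroxylase gene Hn by 0.27 ± 0.25, with adjusted p between 0.161 and 0.758.

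None of the 3 dopamine receptor genes tested was called: Dop1R1 differed by -0.17 ± 0.17, Dop2R by 0.05 ± 0.11 and DopEcR by 0.13 ± 0.11 (adjusted p between 0.593 and 0.881). Of 6 genes of dopamine conjugation and pigment tested, 3 were called (50%, against 7.4% of all genes), 1 higher and 2 lower. The gene called higher was e (ebony), whose product joins dopamine to β-alanine in glia and in cuticle. It was at 4.46, 6.39 and 5.55 RPKM in WT and 13, 10.1 and 10.4 in the mutant, and was upregulated (0.91 ± 0.15, adjusted p = 0.0168). Its partners were not called: t (tan), which reverses that step, differed by 0.13 ± 0.30 and b (black), which supplies β-alanine, by 0.16 ± 0.12. Called lower were the pigment transporter genes st (scarlet) and bw (brown), whose proteins pair with the white protein in eye pigment cells. The level of st was 14.9, 16.3 and 15.9 RPKM in WT and 8.37, 7.23 and 6.59 in the mutant (-0.999 ± 0.11, adjusted p = 0.00322), and that of bw 33.7, 32.1 and 28.5 RPKM in WT and 18.7, 13.5 and 15.1 in the mutant (-0.96 ± 0.13, adjusted p = 0.00857). Calls on e, st and bw were kept over all 8 libraries and were made again between the AMPH groups. Among 17 genes of serotonin, octopamine and tyramine 1 was called (5.88%, near the 7.4% of all genes). It was the tyrosine decarboxylase gene Tdc1 (-0.60 ± 0.13, adjusted p = 0.0457). The call on Tdc1 was lost without WT vehicle replicate 2 or 3 or without DAT mutant vehicle replicate 1 or 4 (adjusted p up to 0.163) and over all 8 libraries (adjusted p = 0.43). None of 10 genes known for effects on sleep was called, with differences between -0.33 and 0.12.

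Turandot genes, which encode small proteins secreted under heat, infection and other stress, showed the largest rises. TotA was at 36.1, 18.2 and 15.8 RPKM in WT and at 2075, 668 and 5839 in the mutant, 122-fold higher in the mean (6.46 ± 0.71, adjusted p = 0.00326). TotC was at 7.95, 5.29 and 6.35 RPKM in WT and 1321, 166 and 3304 in the mutant (6.92 ± 0.93, adjusted p = 0.00769). All 4 Turandot genes tested were upregulated (100%, against 7.4% of all genes called), TotM by 5.68 ± 1.09 and TotX by 3.94 ± 0.61. Mutant flies differed widely among themselves, with DAT mutant vehicle replicate 3 lowest and replicate 4 highest for each of the 4 genes, but no mutant library reached down to a WT library. TotB was below the filter, at most 0.091 RPKM in WT and at most 2.74 in the mutant. The calls were kept over all 8 libraries, where DAT mutant vehicle replicate 2 was at 4229 RPKM of TotA, while WT vehicle replicate 1 was at 0.11.

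Bomanins are short peptides secreted into the hemolymph under control of the Toll pathway. Of the 14 Bomanin and related immune-induced genes tested, 9 were upregulated and 0 downregulated (64.3% called, against 7.4% of all genes). Their median difference was 1.05. BomBc1 was at 3.52, 8.61 and 11.1 RPKM in WT and 152, 287 and 201 in the mutant, 27.6-fold higher (4.68 ± 0.37, adjusted p = 0.000773). BomS1 followed with 48.9, 72.3 and 91.4 RPKM in WT and 342, 588 and 379 in the mutant (2.61 ± 0.27, adjusted p = 0.00246). BomT2 was higher by 1.96 ± 0.29, BomS2 by 1.53 ± 0.25, BomS3 by 1.30 ± 0.21 and BomBc2 by 1.27 ± 0.27, with BomS5, IM10 and BomS4 between 0.79 and 1.15. BomT3, IM33, BomS6, BomBc3 and IM18 were not called and differed by between -0.33 and 0.71.

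Of these 9 calls, 8 belonged to neighbours in a single cluster, from BomBc1 to BomS5 (chr2R:14270209-14277752 of dm3), and 5 of the 9 were kept over all 8 libraries. DAT mutant vehicle replicate 2 had the highest value of all 8 vehicle libraries for each gene of the cluster, up to 3484 RPKM for BomS5. The call on BomBc2 was lost without DAT mutant vehicle replicate 1 or 4 (adjusted p up to 0.154). Those on BomS4 and BomS5 were lost when any of several single libraries was left out, with adjusted p up to 0.204 and 0.192.

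Antimicrobial peptide genes moved in both directions. Of 7 tested, 4 were higher and 1 lower (71.4% called, against 7.4% of all genes). Mtk, which encodes the antifungal peptide metchnikowin, was at 0.989, 0.89 and 0.40 RPKM in WT and 17.9, 5.92 and 9.96 in the mutant (2.70 ± 0.34, adjusted p = 0.00617). Drsl4, a relative of drosomycin, was at 29.1, 39.8 and 35.9 RPKM in WT and 103, 262 and 171 in the mutant (2.23 ± 0.31, adjusted p = 0.00816), and Dro (drosocin) was higher by 1.59 ± 0.27. The abundant Drsl5 was at 919, 1147 and 1096 RPKM in WT and 1928, 1896 and 2062 in the mutant, higher by 0.90 ± 0.15. These 4 calls were kept over all 8 libraries. Drs, which encodes drosomycin, the classic Toll target, was downregulated instead, from 9.76, 9.62 and 18 RPKM to 7.2, 4.03 and 5.26 (-1.02 ± 0.26, adjusted p = 0.0821), a call not kept over all 8 libraries (adjusted p = 0.511). The inducible genes CecA1, CecA2, CecC, AttA, AttC, DptB and Drsl2 were below the filter, at 1.88 RPKM or less in each of the 6 libraries.

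Peptidoglycan recognition proteins sense bacterial cell walls. Of their 10 genes tested, a family counted after values were seen, 4 were higher (40%, against 7.4% of all genes), 0 were lower and the median was 0.52. PGRP-SB1, which encodes a secreted amidase, was at 10.9, 7.25 and 6.9 RPKM in WT and 38.2, 28.7 and 58.1 in the mutant (2.16 ± 0.26, adjusted p = 0.00508), a call kept over all 8 libraries (adjusted p = 0.0441). The other 3 lie next to each other: PGRP-LC, the receptor of the Imd pathway (0.47 ± 0.10, adjusted p = 0.053), PGRP-LF, which dampens that pathway (0.83 ± 0.16, adjusted p = 0.0315), and PGRP-LA (0.60 ± 0.11, adjusted p = 0.0289). None of these 3 calls was kept over all 8 libraries (adjusted p between 0.158 and 0.478).

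The secreted peptides are made largely by fat body and blood cells, so that markers of these cells are given here. None of 5 fat body markers was called, and their summed level was 139.8 to 355.0 RPKM in WT and 231.6 to 321.7 in the mutant. None of 4 hemocyte markers was called either, with sums of 33.6 to 38.3 RPKM in WT and 37.5 to 53.7 in the mutant. In WT vehicle replicate 1 the fat body sum was 30.7 RPKM, the lowest of the vehicle libraries. The part of such markers in the immune differences was not tested.

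**Figure D2:**
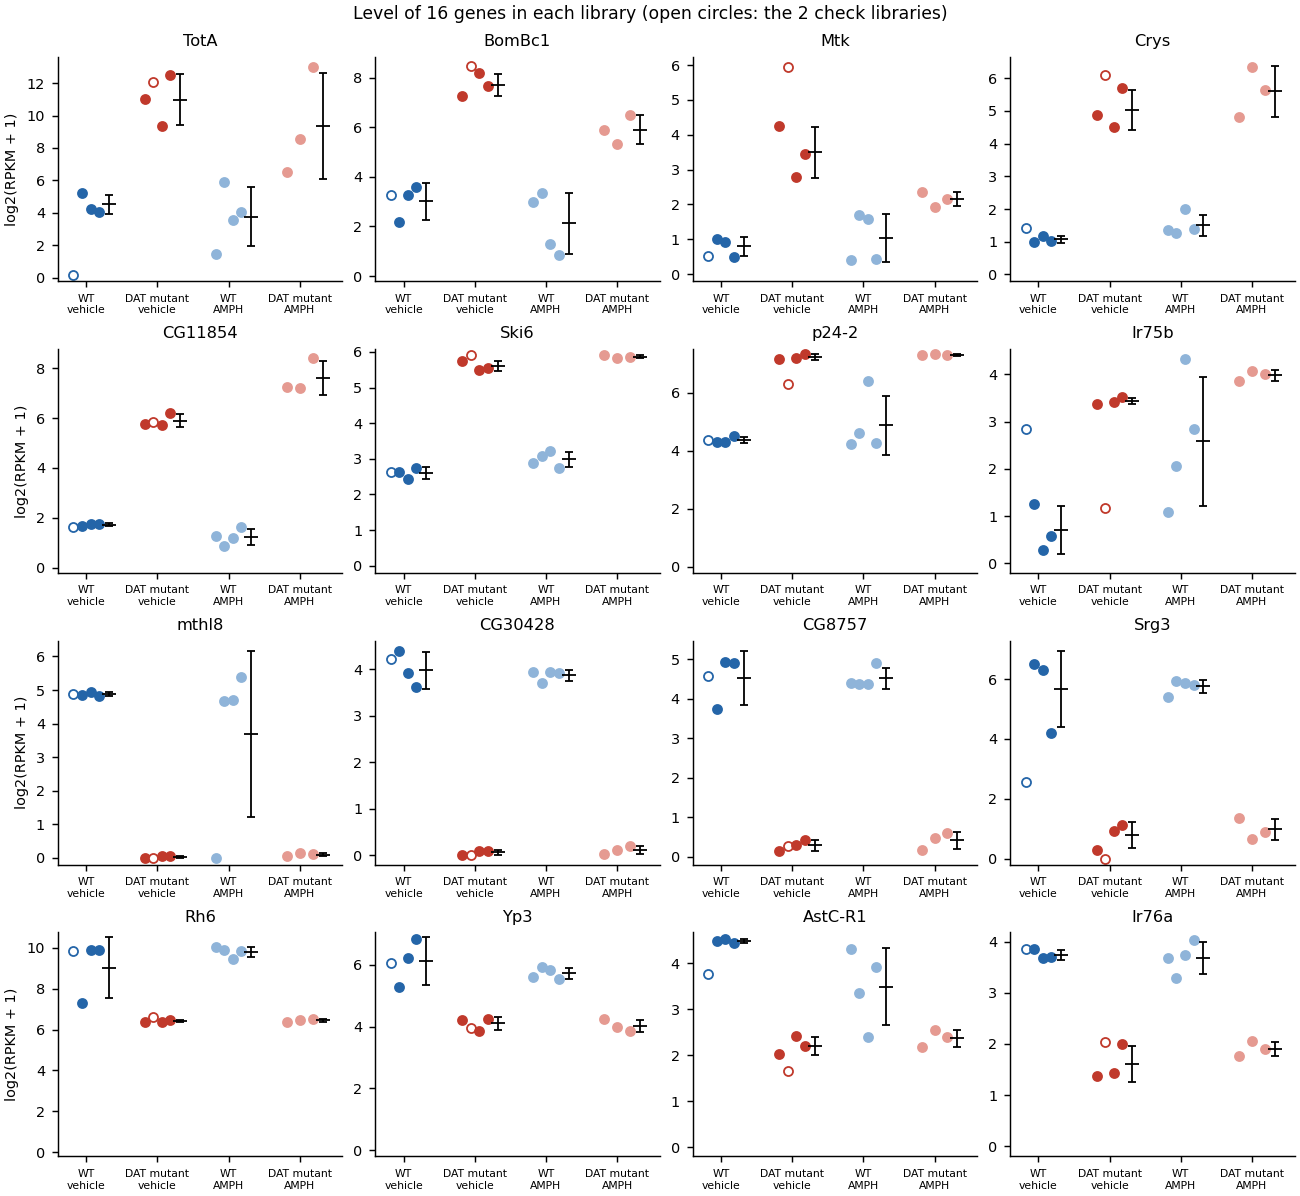
Level, as log2(RPKM + 1), of 16 genes in each of the 15 libraries, with vehicle groups in dark and AMPH groups in light colours. Filled circles are fitted libraries, open circles the 2 check libraries, and bars the mean and SD of the filled circles. TotA, BomBc1, Crys, CG11854 and Ski6 are higher in every fitted DAT mutant library than in any WT library of either food, while mthl8 is near 0 in 1 WT library on AMPH.

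Relatives of takeout were among the largest rises. CG11854 was at 2.18, 2.38 and 2.41 RPKM in WT and 53.3, 51.7 and 71.7 in the mutant, 25.3-fold higher with little spread in either strain (4.16 ± 0.14, adjusted p = 1.55e-05). Its end overlaps that of bam, and it lies next to takeout (to) itself, which was at a mean of 96.6 ± 25.4 RPKM in WT and 1137 ± 329.8 in the mutant (± SD, n = 3 each, a difference of 3.54 ± 0.25). The third called member was Jhbp13, at 193, 226 and 164 RPKM in WT and 319.7, 323 and 381 in the mutant (0.82 ± 0.15, adjusted p = 0.0237), a call lost without DAT mutant vehicle replicate 4 (adjusted p up to 0.101). The other 12 of 15 members tested were not called. The share called was 20%, against 7.4% of all genes. The median of the family was 0.03, so the rise was that of single members.

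Of 13 clock genes, to included, 3 were higher and 2 lower (38.5% called, against 7.4% of all genes). The repressor gene cwo (clockwork orange) was at 19, 14.4 and 14.6 RPKM in WT and 36.3, 30.2 and 34.4 in the mutant (1.03 ± 0.13, adjusted p = 0.00617). vri (vrille), which represses Clk, was higher by 0.51 ± 0.13 (adjusted p = 0.0884). The activator genes Clk and cyc, whose proteins bind DNA as a pair, were lower by similar amounts. Clk was at 13.6, 13 and 10.3 RPKM in WT and 9.01, 8.16 and 8.38 in the mutant (-0.47 ± 0.12, adjusted p = 0.0821), and cyc at 26.4, 29.9 and 31.3 RPKM in WT and 20.3, 22.9 and 19.7 in the mutant (-0.46 ± 0.10, adjusted p = 0.0561). per and tim, the repressors of the central loop, were not called at 0.64 ± 0.18 (adjusted p = 0.105) and 0.48 ± 0.16 (adjusted p = 0.168). Cipc, named for its mammalian relative that binds CLOCK, was also higher (13.3, 11.3 and 13.6 RPKM in WT and 32.3, 30 and 33.6 in the mutant, 1.26 ± 0.10, adjusted p = 0.000873), a call not kept over all 8 libraries (adjusted p = 0.114). Of the 5 calls on the list 1, that on to, was kept over all 8 libraries, and DAT mutant vehicle replicate 2 was at 12.7 RPKM of cwo, 35.7 of vri, 1.27 of Clk and 7.95 of cyc, below every other mutant library for each. The call on vri was also lost without WT vehicle replicate 2 or 3 or without DAT mutant vehicle replicate 1 or 4 (adjusted p up to 0.254). The hour of day at which each fly was collected is not given in the sources used here, and its part in these differences was not tested.

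Genes set off by neuronal activity did not move one way. Hr38, which encodes a nuclear receptor induced by activity, was at 3.0, 3.52 and 2.82 RPKM in WT and 6.64, 7.37 and 8.05 in the mutant (1.02 ± 0.12, adjusted p = 0.00508), and sr (stripe) was higher by 0.68 ± 0.16 (adjusted p = 0.0669). Arc1, which encodes a capsid-forming synaptic protein, was lower (-2.21 ± 0.22, adjusted p = 0.00233). The call on Arc1 was kept over all 8 libraries and those on Hr38 and sr were not (adjusted p = 0.63 and 0.695). In addition, sr lost its call in 5 of the fits that left out 1 library, namely without WT vehicle replicate 2, 3 or 4 or without DAT mutant vehicle replicate 3 or 4 (adjusted p up to 0.216). The 7 other genes of this list were not called, and the share called was 30%, against 7.4% of all genes.

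Enzymes that modify foreign and internal compounds held calls in both directions, apart from the UDP-glycosyltransferases, which attach sugars to their substrates. Of 17 of these tested, 0 were higher and 6 lower (35.3% called, against 7.4% of all genes), and the list median was -0.38. Ugt49C1 was at 40.8, 46.9 and 47.2 RPKM in WT and 10.8, 7.99 and 12.3 in the mutant, 4.34-fold lower (-2.03 ± 0.15, adjusted p = 0.000646). Ugt317A1 was at 5.82, 6.58 and 6.44 RPKM in WT and 2.01, 1.37 and 2.0 in the mutant (-1.39 ± 0.14, adjusted p = 0.00235). Ugt49B1 was lower (-1.08 ± 0.13), Ugt35E2 (-0.81 ± 0.18), Ugt35B1 (-0.71 ± 0.10) and Ugt37D1 (-0.44 ± 0.11). Over all 8 libraries 4 of the 6 calls were kept, those on Ugt35E2 and Ugt37D1 being lost.

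Glutathione S-transferases went both ways, with GstE1, GstE2, GstE5, GstE7 and GstE8 close together on 2R. Of 30 tested, 7 were called (23.3%, against 7.4% of all genes). Called higher were 3, GstE8 by 1.66 ± 0.20, GstE1 by 1.54 ± 0.15 and GstE11 by 1.42 ± 0.18. Another 4 were lower, with differences of -1.81 ± 0.23 for GstE7, -1.01 ± 0.27 for GstE5, -0.55 ± 0.14 for GstE2 and -0.49 ± 0.12 for GstE14. GstE8 was at 2.94, 4.63 and 3.31 RPKM in WT and 17.2, 10.4 and 13.6 in the mutant, whereas its neighbour GstE7 was at 6.57, 12 and 11.6 RPKM in WT and 2.58, 1.62 and 2.11 in the mutant. Near-identical members of this cluster can share reads, so single values of the family are uncertain. The calls on GstE14, GstE5 and GstE2 were not kept over all 8 libraries.

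Of 70 cytochrome P450 genes tested, 6 were higher and 7 lower (18.6% called, against 7.4% of all genes). Cyp4d21 was at 45.4, 58.6 and 49.4 RPKM in WT and 130.5, 116 and 179 in the mutant (1.44 ± 0.18, adjusted p = 0.00514), and Cyp9c1 was higher by 1.33 ± 0.16. Cyp6a14 was at 5.48, 3.08 and 4.07 RPKM in WT and 0.615, 0.329 and 0.332 in the mutant (-1.85 ± 0.21, adjusted p = 0.00347). Cyp6a2, which is known for insecticide resistance, was lower at 169, 98.1 and 71.6 RPKM in WT against 43.1, 26.2 and 31.1 in the mutant (-1.67 ± 0.31, adjusted p = 0.0274), a call lost without DAT mutant vehicle replicate 4 (adjusted p up to 0.108). The other called members were Cyp303a1, Cyp4d1, Cyp4d8 and Cyp6v1, higher by between 0.64 and 0.92, and Cyp6a15Psi, Cyp28d1, Cyp28d2, Cyp28a5 and Cyp6a8, with differences between -1.37 and -0.47. Over all 8 libraries 5 of the 13 calls were kept.

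Chemosensory genes gave a few large differences, with 5 of 35 receptor genes and 3 of 30 odorant-binding protein genes called (14.3% and 10%, against 7.4% of all genes, the latter near that background). The largest rises were those of Ir75a and Ir75b, neighbouring receptors of the ionotropic family that detect short acids. Ir75b was at 1.41, 0.212 and 0.492 RPKM in WT and 9.43, 9.71 and 10.4 in the mutant (2.73 ± 0.24, adjusted p = 0.00127), and Ir75a at 2.47, 1.58 and 2.34 RPKM in WT and 18.4, 15.2 and 14.6 in the mutant (2.45 ± 0.15, adjusted p = 0.000266). WT vehicle replicate 1 lay above the fitted WT libraries for both, at 6.16 RPKM of Ir75b and 11.2 of Ir75a. DAT mutant vehicle replicate 2 was at 1.24 RPKM of Ir75b, within the range of the fitted WT libraries, but at 13.4 of Ir75a, near its own strain. Over all 8 libraries Ir75b was not called (adjusted p = 0.418).

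Ir76a, another ionotropic receptor gene, fell from 13.5, 11.8 and 12 RPKM to 1.58, 1.71 and 3.01 (-2.14 ± 0.18, adjusted p = 0.000949), and both check libraries lay with their own strain (13.5 RPKM in WT and 3.1 in the mutant). Or67d, the receptor of the male pheromone cis-vaccenyl acetate, was lower (-0.999 ± 0.20, adjusted p = 0.0336), and Or65c was higher by 1.26 ± 0.20 (adjusted p = 0.0142). The call on Or65c was not kept over all 8 libraries. Among odorant-binding proteins, Obp56e was at 101, 148 and 127 RPKM in WT and 32.9, 21.3 and 31.2 in the mutant (-2.11 ± 0.19, adjusted p = 0.00153). Obp57e was higher by 1.64 ± 0.29 and Obp57c by 0.90 ± 0.18, neither kept over all 8 libraries. The call on Obp57c was also lost without WT vehicle replicate 2 or 4 (adjusted p up to 0.103).

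In the eye, Rh6 was the 1 gene called among 15 retina genes (6.67%, near the 7.4% of all genes). Rh6 encodes the green-sensitive rhodopsin of a subset of R8 photoreceptors. It was at 155, 962 and 949 RPKM in WT and 82.6, 82.5 and 87.5 in the mutant (-2.62 ± 0.64, adjusted p = 0.0698). WT vehicle replicate 2 stood apart at 155 RPKM, and WT vehicle replicate 1, outside the fit, was at 925. The call was lost without WT vehicle replicate 3 or 4 or without DAT mutant vehicle replicate 1, 3 or 4 (adjusted p up to 0.19), while without WT vehicle replicate 2 the difference was -3.49 and the call was kept. The strains did not overlap on either food. None of the other 14 retina genes was called, and the summed level of the list overlapped at 34517 to 62870 RPKM in WT and 56744 to 59545 in the mutant. Crys, which encodes a crystallin of the corneal lens and is not on that list, was at 0.983, 1.28 and 1.04 RPKM in WT and 28.5, 21.9 and 51.4 in the mutant, 30.8-fold higher (3.97 ± 0.27, adjusted p = 0.000446).

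Muscle genes were mostly lower. Of 9 tested, 4 fell and 1 rose (55.6% called, against 7.4% of all genes), and the list median was -0.56. Mhc, the muscle myosin heavy chain gene, was at 269.9, 228 and 318 RPKM in WT and 163, 161 and 150.2 in the mutant (-0.77 ± 0.14, adjusted p = 0.0232). Act88F, the actin gene of the indirect flight muscle, was at 16.1, 6.44 and 16.5 RPKM in WT and 5.07, 1.93 and 2.98 in the mutant (-1.66 ± 0.38, adjusted p = 0.0567). Act57B was lower (-0.63 ± 0.16) and the troponin gene wupA (-0.56 ± 0.14). The exception was fln (flightin), a thick filament gene of flight muscle, which was higher at 20.8, 15.4 and 15.6 RPKM in the mutant against 7.58, 6.3 and 6.32 in WT (1.23 ± 0.14, adjusted p = 0.00396).

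The summed level of the 9 muscle genes was 1080 to 1530 RPKM in WT and 826 to 963 in the mutant, without overlap. On vehicle these sums moved with the strain, whereas on AMPH they overlapped, at 703 to 1027 RPKM in WT and 670 to 775 in the mutant. The part of muscle in the other differences was not tested. The call on Mhc was lost without DAT mutant vehicle replicate 4 (adjusted p up to 0.106), and that on Act88F without WT vehicle replicate 2 or 4 or without DAT mutant vehicle replicate 3 or 4 (adjusted p up to 0.174). Over all 8 libraries the calls on Act88F and fln were kept.

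Cuticle proteins had 3 higher and 6 lower among 36 tested (25% called, against 7.4% of all genes). Cpr49Ag was at 116, 97.6 and 109 RPKM in WT and 35.6, 24.9 and 25.8 in the mutant (-1.88 ± 0.15, adjusted p = 0.000773), and its neighbour Cpr49Af was lower (-1.32 ± 0.28), a call lost without WT vehicle replicate 2 or 3 (adjusted p up to 0.149). TwdlT, of the Tweedle family, was lower (-1.23 ± 0.19), Cpr97Ea (-1.17 ± 0.20), Cpr11B (-1.03 ± 0.22) and Cpr97Eb (-0.82 ± 0.21). Cpr51A was higher by 1.00 ± 0.12, Cpr60D by 0.77 ± 0.19 and Cpr49Ae by 0.59 ± 0.11. Over all 8 libraries 6 of the 9 calls were kept. Of 4 Osiris genes, a family expressed with forming cuticle, 2 were lower (50% called, against 7.4% of all genes). Osi2 was at 7.57, 20.9 and 18.4 RPKM in WT and 4.71, 0.369 and 0.435 in the mutant (-2.78 ± 0.59, adjusted p = 0.0434). Osi9 differed by -0.74 ± 0.17, a call not kept over all 8 libraries (adjusted p = 0.256). The call on Osi2 was lost without WT vehicle replicate 3 or 4 or without DAT mutant vehicle replicate 3 or 4 (adjusted p up to 0.15), and that on Osi9 without DAT mutant vehicle replicate 1 or 4 (adjusted p up to 0.191). In each fit without a WT library Osi9 was below the filter and not tested.

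In metabolism and endocrine signalling, 4 of 25 genes were called (16%, against 7.4% of all genes). Treh (trehalase), which splits the main blood sugar of the fly, was at 135, 116 and 92.6 RPKM in WT and 323, 187 and 229 in the mutant (1.08 ± 0.22, adjusted p = 0.0388), a call lost without WT vehicle replicate 3 or 4 or without DAT mutant vehicle replicate 4 (adjusted p up to 0.12). The insulin-like peptide gene Ilp5 was higher by 0.77 ± 0.21 (adjusted p = 0.0943). The amylase gene Amy-p was lower at 3.28, 2.23 and 5.12 RPKM in the mutant against 15.9, 28.8 and 10.4 in WT (-2.03 ± 0.36, adjusted p = 0.0227), and the lipase gene bmm (brummer) was lower (-0.45 ± 0.11). The WT library highest in Amy-p, replicate 3, was also highest in gut markers, at a sum of 7.92 RPKM, and their part in this difference was not tested. None of these 4 calls was kept over all 8 libraries, and that on Ilp5 was lost in 5 of the fits without 1 library (adjusted p up to 0.247).

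Yp3, a yolk protein gene that is also expressed in male tissues, was at 38.1, 73.1 and 113 RPKM in WT and 17.5, 13.4 and 17.9 in the mutant (-2.01 ± 0.35, adjusted p = 0.0206). Yp1 and Yp2 were at most 1.52 RPKM in the 6 libraries, and lncRNA:roX1, a marker of males, was between 374 and 419. Of 18 heat shock genes 1 was called (5.56%, near the 7.4% of all genes). It was Hsp83, the gene of the fly Hsp90, at 354, 425 and 368 RPKM in WT and 185, 197 and 174 in the mutant (-1.04 ± 0.12, adjusted p = 0.00348). The call on Yp3 was kept over all 8 libraries and that on Hsp83 was not (adjusted p = 0.122).

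Several lists held no call: 12 neuron markers (differences from -0.41 to 0.32), 8 glia markers (-0.30 to 0.44), 11 genes of oxidative stress (-0.27 to 1.05) and 86 cytosolic ribosomal protein genes (-0.24 to 0.55). Single members were called among 73 mitochondrial ribosomal protein genes (mRpL39, 0.71 ± 0.10), 35 proteasome genes (Rpt5, 0.40 ± 0.09), 21 subunits of the vacuolar proton pump (Vha100-4, 2.04 ± 0.18) and 6 methuselah-like receptors (mthl8, below). The shares called were 1.37%, 2.86%, 4.76% and 16.7%, in that order, against 7.4% of all genes. Among these single calls only those on mRpL39 and mthl8 were kept over all 8 libraries. Of 4 gut markers 1 gene (lab) was tested and not called. Their summed level was 1.65 to 7.92 RPKM in WT and 0.896 to 1.81 in the mutant, and 3 of the 4 were under 0.5 RPKM in every mutant library while none was in every WT library.

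**Figure D3:**
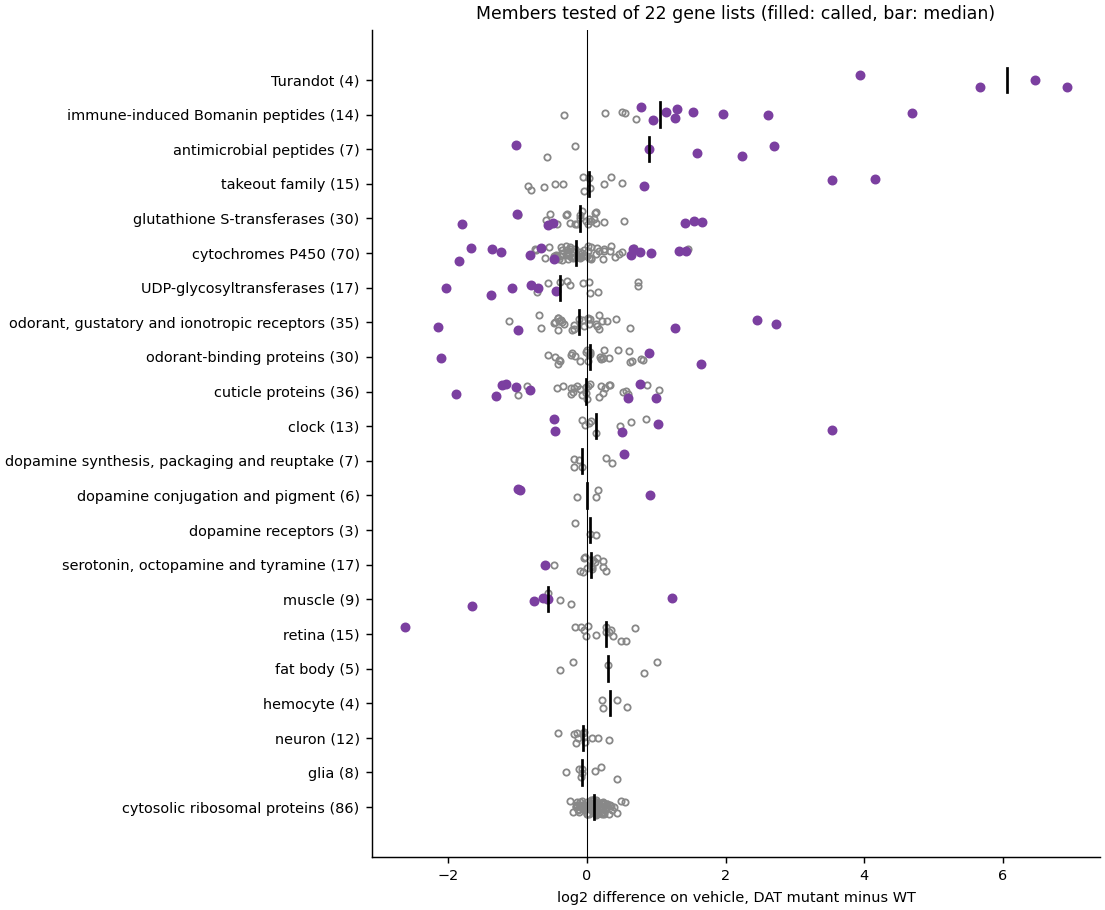
Strain difference on vehicle (log2 scale) of each member tested of 22 gene lists, with the number tested in parentheses, called members filled and the list median as a bar. All 4 Turandot genes and 9 of 14 Bomanin and related genes lie to the right, 6 of 17 UDP-glycosyltransferases are called to the left, and no neuron, glia or ribosomal gene is called.

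The largest falls were those of genes that the mutant hardly expressed. mthl8, a receptor gene of the methuselah-like family (chr3L:22947-26316 of dm3), was at 28.2, 29.9 and 27.6 RPKM in WT and 0, 0.030 and 0.030 in the mutant (-4.86 ± 0.11, adjusted p = 1.29e-06). CG30428 (chr2R:21140837-21142371) was at 20, 14.1 and 11.2 RPKM in WT and 0, 0.069 and 0.070 in the mutant (-3.91 ± 0.20, adjusted p = 9.71e-05). It was the only gene at 0.5 RPKM or less in every library of one strain and at 5 RPKM or more in every library of the other, over all 15 libraries. CG8757 (chr3L:13834374-13835340) came next with 12.3, 29.8 and 29.2 RPKM in WT and 0.106, 0.223 and 0.337 in the mutant (-4.25 ± 0.31, adjusted p = 0.000555).

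Srg3 had the largest fall of all but varied within WT. It was at 89.3, 77.7 and 17.5 RPKM in WT and 0.218, 0.915 and 1.15 in the mutant (-4.89 ± 0.57, adjusted p = 0.00422), and WT vehicle replicate 1, outside the fit, was at 4.92. CG13646 was at 12.1, 9.01 and 10.9 RPKM in WT and 0.175, 0.281 and 0.17 in the mutant (-3.26 ± 0.15, adjusted p = 4.66e-05), and CG4962 was lower (-2.95 ± 0.31). CG17186 kept a low level in the mutant, with 2.99, 3.48 and 3.83 RPKM against 29.3, 27.1 and 35.5 in WT (-2.83 ± 0.13, adjusted p = 5.00e-05). AstC-R1, a receptor of the neuropeptide allatostatin C, was at 21.6, 22.1 and 20.9 RPKM in WT and 3.06, 4.32 and 3.58 in the mutant (-2.28 ± 0.12, adjusted p = 0.000102). On AMPH the strains overlapped for AstC-R1, at 4.28 to 18.8 RPKM in WT and 3.53 to 4.84 in the mutant, and it was not called (adjusted p = 0.193). Cks30A, which encodes a subunit that binds cyclin-dependent kinases, ranged from 2.11 to 19.4 RPKM within WT, and its call (adjusted p = 0.0988) was lost without WT vehicle replicate 3 or 4 or without DAT mutant vehicle replicate 1, 3 or 4 (adjusted p up to 0.261). All of these vehicle calls except that on Cks30A were kept over all 8 libraries (adjusted p at most 0.0469).

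Further large rises were found outside the lists. Ski6, which encodes a subunit of the RNA exosome, was at 5.2, 4.39 and 5.73 RPKM in WT and 53, 44.1 and 46.1 in the mutant, 9.34-fold higher (3.00 ± 0.12, adjusted p = 3.03e-05). CG31205 was at 13.6, 18.6 and 13.2 RPKM in WT and 74.7, 243 and 145 in the mutant (3.13 ± 0.38, adjusted p = 0.00508). p24-2, a cargo receptor gene of the secretory pathway, was at 18.9, 18.7 and 21.7 RPKM in WT and 141, 146 and 159.6 in the mutant, 7.52-fold higher (2.85 ± 0.10, adjusted p = 1.74e-05). Over all 15 libraries the strains did not overlap for Ski6. For p24-2 they did, with 78.1 RPKM in DAT mutant vehicle replicate 2 and 82.6 in WT AMPH replicate 3. The calls on Ski6 and p24-2 were kept over all 8 vehicle libraries.

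Some called genes lay side by side. There were 17 runs of at least 3 neighbouring tested genes called in 1 direction, with 65 genes in all, and these runs were picked after their values were seen. Of the 65 calls, 30 were kept over all 8 libraries. Next to the Bomanin cluster, the longest held 6 genes on 3R (chr3R:5510191-5525426 of dm3), all higher in the mutant: eca (1.56 ± 0.10), CG18542 (0.92 ± 0.10), Unc-115b (2.17 ± 0.09), p24-2, CG32939 (0.99 ± 0.13) and Unc-115a (1.98 ± 0.09). eca and p24-2 are paralogs, as are Unc-115a and Unc-115b, and near-identical copies can share reads, so the values of the single copies are uncertain. CG18542 and CG32939, on the same strand, also had nearly equal values in the mutant (19.5, 18.9 and 16.9 RPKM against 19.8, 16.8 and 17.4). Whether they share reads was not tested. Over all 8 libraries 5 of the 6 calls were kept, that on CG18542 being lost (adjusted p = 0.136). Unc-115a was at 32.1, 35.4 and 35.3 RPKM in WT and 141, 137 and 135 in the mutant.

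On 2L, Ski6 stood in a run of 4 rises (chr2L:13216290-13224550) with CG9426 (0.75 ± 0.09), mRF1 (1.52 ± 0.09) and CG16812 (1.39 ± 0.11), of which mRF1 was not called over all 8 libraries (adjusted p = 0.149). The ends of Ski6 and mRF1 overlap on opposite strands, and whether the counting used strand is not given in the sources used here. On 3L, a run of 4 falls (chr3L:1305275-1318328) held Nt5a (-0.71 ± 0.13), Ctr9 (-1.24 ± 0.09), sturkopf (-0.77 ± 0.14) and Herc4 (-1.33 ± 0.10). Ctr9, which encodes a subunit of the Paf1 complex of transcription, was at 58.3, 56 and 59.9 RPKM in WT and 24, 25.7 and 22.6 in the mutant, and Herc4, a ubiquitin ligase gene, at 129, 118 and 138 RPKM in WT and 50.6, 52.1 and 48.1 in the mutant. Ctr9 and sturkopf overlap at their ends. Another run held 3 hairpin RNA genes, templates of small interfering RNAs, and CG32212 within the last of them on 3L. hpRNA:CR32205 was at 0.13, 0.089 and 0.10 RPKM in WT and 2.02, 1.15 and 1.08 in the mutant (1.11 ± 0.21). Of the 65 genes, 4 (tal-1A, tal-2A, tal-3A and tal-AA) share 1 start and have nearly equal values, so they stand for 1 transcript.

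Calls were found on every chromosome arm. The share called was 9.02% on 2L, 8.79% on 2R, 9.51% on 3L, 6.32% on 3R, 3.81% on X and 2.35% (2 of 85 genes) on 4. On 2R, where DAT lies, the share within 1 Mb of DAT was 8.33% (4 higher and 13 lower of 204), close to that of the whole arm. The windows with the largest shares were 1 to 2 Mb from DAT in the direction of rising coordinates, with 13.1% of 122 genes, 8 of its 16 calls being the Bomanin cluster, and 3 to 5 Mb from DAT with 13% of 154. Nearest to DAT among called genes were Asph, which lies 0.448 Mb to the left and was lower (-0.47 ± 0.11), and resilin, which encodes an elastic cuticle protein, lies 0.22 Mb to the right and was lower (-0.80 ± 0.17). The call on Asph was lost without WT vehicle replicate 3 or 4 or without DAT mutant vehicle replicate 1 or 4 (adjusted p up to 0.19) and over all 8 libraries, and that on resilin without DAT mutant vehicle replicate 1 or 4 (adjusted p up to 0.132). In each fit without a WT library resilin was below the filter and not tested.

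**Figure D4:**
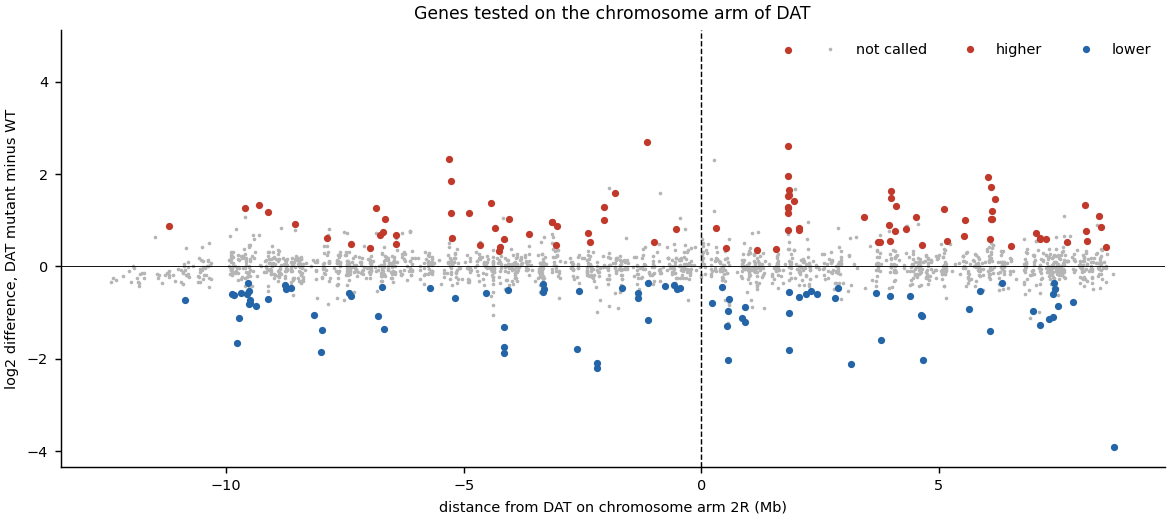
Strain difference on vehicle (log2 scale) of the genes tested on chromosome arm 2R against their distance from DAT in Mb, with called genes in colour. Calls lie along the whole arm, 8.33% of genes within 1 Mb of DAT and 8.79% on the arm, and the stack of red points between 1 and 2 Mb is the Bomanin cluster.

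The strains were compared again in the AMPH groups, 4 WT and 3 DAT mutant libraries, none of which enters the vehicle comparison. Here 251 genes were higher and 335 lower in the mutant among 10027 tested (5.84% called, 2.5% higher and 3.34% lower). This count fell to 257, 237 and 155 without DAT mutant AMPH replicate 1, 2 and 3. Of the 736 genes called on vehicle 710 were tested on AMPH, and 649 of these (91.4%) differed in the same direction, against 67.4% of the genes not called on vehicle. Called on both in the same direction were 243 genes, 99 higher and 144 lower, which is 34.2% of the 710 and 41.5% of the calls on AMPH, and 2 genes were called in opposite directions. Over the 710 genes the differences on vehicle and on AMPH had a Pearson r of 0.84 (0.66 over all 9773 genes tested on both), a description across genes, which are not independent replicates.

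Strains without overlap over all 15 libraries were found for 243 genes, 2.44% of those tested (71 with every mutant library above every WT library, 0.714%, and 172 below, 1.73%). Among genes called on vehicle they were 53 of those higher (14.9%) and 108 of those lower (28.3%), shares that the vehicle calls themselves raise. On AMPH, CG30428 was at 14.2, 11.9, 14.4 and 14.1 RPKM in WT and 0.019, 0.080 and 0.142 in the mutant (adjusted p = 3.16e-06), CG8757 differed by -4.11 (adjusted p = 1.98e-05), Srg3 by -4.78 (adjusted p = 1.98e-05) and Rh6 by -3.34 (adjusted p = 2.94e-05). Rises that were as large on AMPH included Ski6 at 2.88 (adjusted p = 2.26e-05) and Crys at 4.10 (adjusted p = 0.000757). Yp3 was again lower (-1.69, adjusted p = 0.000757), as was Ir76a (-1.78, adjusted p = 0.00189). The fall of mthl8 was not called on AMPH, where WT AMPH replicate 1 was at 0.006 RPKM and the other WT libraries at 24.3 to 40.7.

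Immune and stress genes varied widely within each strain on AMPH. TotA was at 1.8, 59.3, 10.6 and 15.6 RPKM in WT and 91.1, 379 and 7985 in the mutant, with the mutant libraries still above every WT library (5.605, adjusted p = 0.098), whereas TotC overlapped between the strains (5.33, adjusted p = 0.186). Of 13 Bomanin and related genes tested on AMPH 1 was called, BomBc1, at 6.88, 9.31, 1.45 and 0.823 RPKM in WT and 57.3, 39.5 and 89.7 in the mutant (3.78, adjusted p = 0.0176). BomS2 was at 730.2, 3113, 1200.3 and 637 RPKM in WT and 2020.0, 566 and 1242 in the mutant (-0.03, adjusted p = 0.988). For none of the Turandot, Bomanin and related genes tested on both foods did the strain difference on vehicle itself differ from that on AMPH (adjusted p at least 0.793 in the fit of 13 libraries).

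**Figure D5:**
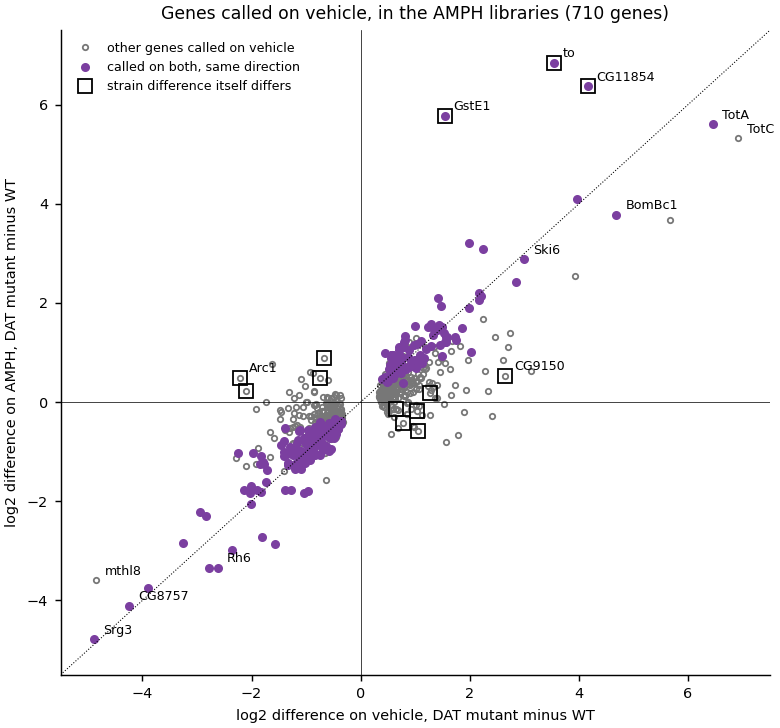
Strain difference on AMPH against that on vehicle (both DAT mutant minus WT, log2 scale) for the 710 genes called on vehicle and tested on AMPH, with the dotted line where both are equal. Filled points are the 243 genes called on both in the same direction, and squares the genes whose strain difference itself differed between foods, among them to, CG11854, GstE1, Arc1 and CG9150.

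A strain difference that itself differed between vehicle and AMPH was called for 19 of 10332 genes (0.184%), 9 with the signed difference higher on vehicle (0.0871%) and 10 with it higher on AMPH (0.0968%), and 14 of the 19 were called on vehicle. CG9150 is a case where the difference stood on vehicle: it was at 3.61, 1.53 and 1.67 RPKM in WT and 21.6, 20 and 15.1 in the mutant on vehicle (2.65 ± 0.24), but at 8.98, 6.64, 4.89 and 9.16 RPKM in WT and 12.3, 9.89 and 10.6 in the mutant on AMPH (0.53, adjusted p = 0.207). The difference between the foods was 2.11 ± 0.34 (adjusted p = 0.0399). Cipc and cwo had the same pattern, with differences between the foods of 1.07 ± 0.16 (adjusted p = 0.0292) and 1.21 ± 0.20 (adjusted p = 0.0485). For cwo, WT libraries on AMPH were at 42.7, 49.1, 60.2 and 42.7 RPKM, above every vehicle library of either strain. CG11854 went the other way and was farther apart on AMPH, at 1.38, 0.823, 1.28 and 2.11 RPKM in WT and 151, 145 and 336 in the mutant (6.37 against 4.16 on vehicle, adjusted p of the difference 0.0582). With all 15 libraries in the fit 6 genes were called, and leaving out 1 of the 13 libraries gave between 8 calls (without DAT mutant vehicle replicate 1) and 30 (without WT AMPH replicate 1).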

How the data were processed

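Libraries were polyA+ RNA of single male flies, read on an Ion Torrent instrument and mapped by the authors to dm3 with tmap. The deposited values are RPKM per transcript, made by the authors from mapped reads. All 15 columns of the deposited table were equal to the files of the single libraries. From 18960 transcripts of 11257 genes, 1 transcript per gene, that of the highest mean over 15 libraries, was kept, and 10188 genes were given a current symbol. Genes with at least 1 RPKM in at least 3 fitted libraries were tested with limma 3.58.1 (trended variance, R 4.3.3) on log2(RPKM + 1), with Benjamini-Hochberg adjustment over all genes tested and a threshold of 0.1, after the study. Fits followed the study's use of 6 of the 8 vehicle libraries, for which it states no reason. The scripts were tested on simulated data.

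Depth was read from the size of 1 step between low values (722 transcripts of 1 exon and 150 low values per library), taking 1 step as 1 read. It was 11.1 to 77.7 megareads in the vehicle libraries. Low values of a shallow library rest on few reads.

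The members of the gene lists, the comparison and the tests were chosen with earlier results of these data known. Named genes were the 12 largest called rises and 12 largest called falls with a mean of at least 5 RPKM in 1 group, without overlap between the groups, up to 3 called members of each list, every dopamine gene tested, the nearest called genes to DAT, and genes at opposite ends of detection. Further members of lists and runs, and genes whose strain difference itself differed between foods, were named after their values were seen. Alternatives were other pseudocounts, filters, scalings, thresholds, library sets, every transcript, a replicate block, and leaving out each library. Those with all 8 libraries and another scaling, and that with 7 libraries, were chosen after seeing the data. Symbols that share reads with near-identical or overlapping genes are uncertain. Promoter and protein sequences were not analysed here.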

Additional observations from a re-analysis of the deposited data

Results flagged for a closer look

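Among 321 groups of 4 libraries checked for named genes, 33 held a library that stood apart from the other 3 (Dixon's criterion, which chance meets in about 1 of 20 groups). Of these values 15 belonged to DAT mutant vehicle replicate 2 and 4 to WT vehicle replicate 1, the libraries outside the fit. In DAT mutant vehicle replicate 2 the low values were 57.4 RPKM for Ddc, 83.2 for Hsp83, 0.885 for Hr38, 0.07 for CG5704, 12.9 for Kr-h1, 35.7 for DopEcR, 0.152 for Vha100-4, 7.95 for Ir, 70.0 for Unc-115a, 2.69 for Dop2R, 43.3 for Mhc, 68.7 for Unc-115b and 1.24 for Ir75b. The high values of that library were 27.4 RPKM for v and 36.5 for mRpL37. WT vehicle replicate 1 was low at 1.13 RPKM for v, 0.049 for CG16898 and 12.6 for AstC-R1, and TotC was listed at 0 RPKM.

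Within the fitted libraries, WT vehicle replicate 2 was low at 12.8 RPKM for b, 155 for Rh6 and 6.57 for GstE7, and high at 3.61 for CG9150. WT vehicle replicate 3 was low at 2.18 RPKM for DAT and high at 118 for CR10102. WT vehicle replicate 4 was high at 16.6 RPKM for CG10226 and low at 7.01 for CG32939. In the AMPH libraries, WT AMPH replicate 1 was at 0.006 RPKM for mthl8, against 24.3 to 40.7 in the other 3 libraries of that group. WT AMPH replicate 2 was low at 11.9 RPKM for CG30428, and WT AMPH replicate 4 was high at 29.1 for CG8757. WT AMPH replicate 3 was high at 73.5 RPKM for Unc-115a and 64.9 for Unc-115b, and mir-210 was listed there at 0 RPKM.

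The strain difference on vehicle minus that on AMPH, from one limma fit of 13 libraries, passed an adjusted p of 0.1 for 19 genes. On the log2 scale it was positive for tRNA:Lys-CTT-1-7 (2.24), CG9150 (2.11), CG15093 (1.83), CG16898 (1.81), CG32512 (1.63), cwo (1.21), Kr-h1 (1.20), Cipc (1.07) and Ir (0.78). It was negative for GstE1 (-4.23), to (-3.30), Arc1 (-2.70), CR10102 (-2.32), CG11854 (-2.22), mRpL37 (-1.61), CG6908 (-1.57), bam (-1.42), CG5704 (-1.23) and CG10226 (-1.11).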

How the results depend on the processing

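No called difference of a named gene changed sign under any alternative run, while 9 named genes not called on vehicle and 12 not called on AMPH did under at least 1 (v from -0.14 to 0.83, Dop2R from 0.05 to -0.37 and DopEcR from 0.13 to -0.31 over all 8 libraries). Of 90 named genes called on vehicle, 67 lost no call in the 6 fits without 1 library, and 59 were called over all 8 libraries. A gene that fell below the filter in a fit without 1 library was not tested there and was counted as kept. This held for mthl8, CG30428, mir-210, CG8757, CG13646, CG4962, Cyp6a14, resilin and Osi9 in each fit without a WT library. It also held for Mtk and Vha100-4 in each fit without a DAT mutant library. On vehicle, the calls (all, higher, lower) were 209, 93 and 116 over all 8 libraries, 235, 119 and 116 over all 8 with median centring, 277, 137 and 140 over all 8 with quantile normalization, and 425, 207 and 218 at an adjusted p under 0.05. Without 1 library they ranged from 310 to 601, 145 to 343 and 165 to 302. On AMPH the ranges were 155 to 636, 59 to 273 and 96 to 363. The strain difference that itself differed between foods had 6, 2 and 4 calls with all 15 libraries, and without 1 library 8 to 30, 3 to 17 and 4 to 18. List members called numbered 94 of 767 tested and, over all 8 libraries, 51. The share called over all 8 libraries was 0.972% on X and 2.7% on 2R. With limits of 1 and 5 RPKM, 2 genes in place of 1 lay at opposite ends of detection. The cause of these changes was not tested. Another pseudocount, filter or scaling of the 6 libraries, every transcript in place of 1 per gene and all groups in one fit left the vehicle count within 1.5 times. Depth of 11.1 and 11.2 megareads in 2 of the 3 mutant libraries limits the precision of low values.

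Replicate numbers did not pair the libraries: the deviations of WT and DAT mutant vehicle libraries with the same number correlated at 0.057, -0.036, -0.226 and -0.131. With a replicate block the calls were 25 (10 higher, 15 lower) in the 6 libraries, 44 (24 and 20) in all 8, and 78 (41 and 37) on AMPH, and 18 genes had a strain difference lower on vehicle than on AMPH.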

Other observations

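Several small RNA genes were called in this polyA+ table although such RNAs are not expected to carry long tails. mir-317, mir-210 and tRNA:Pro-TGG-1-4 were listed at 0 RPKM in all 4 DAT mutant vehicle libraries, and tRNA:Val-AAC-2-3 in the 3 fitted ones, against 1.13 to 12.9 RPKM in the fitted WT libraries, and mir-210 was also listed at 0 in WT vehicle replicate 1. On AMPH the mutant was not without them. tRNA:Pro-TGG-1-4 was at 3.98, 0.711 and 1.27 RPKM there and tRNA:Val-AAC-2-3 at 0.982, 2.11 and 0.942. In DAT mutant AMPH replicate 3, mir-317 was at 2.87 RPKM and mir-210 at 1.09. snoRNA:Me18S-A1806 was listed at 0 in all 4 WT vehicle libraries and at 3.43 to 4.92 RPKM in the fitted mutant libraries.

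A few genes with a large strain difference on vehicle moved towards the level of the other strain in WT libraries outside the fit. Ir75a was at 24.3 RPKM, Ir75b at 19.2 and AstC-R1 at 4.28 in WT AMPH replicate 3. In that library p24-2 was at 82.6 RPKM, against 17.8 to 23.6 in the other WT libraries. mthl8 was at 0.006 RPKM in WT AMPH replicate 1, whose level of CG30428, another gene nearly silent in the mutant, was 14.2 RPKM.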
